A study of Saccharomyces cerevisiae with 18 samples.

Results

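The genes described here are *GCN4*, which encodes the master transcriptional activator of amino acid synthesis in budding yeast, and 50 genes for amino acid biosynthesis in *S. cerevisiae*. They were chosen by gene symbol, from the probe sets of the array that match 1 gene, and make up 51 of the 5656 genes measured. The genes fall into 9 groups by role, namely the regulator and the pathways to arginine, histidine, lysine, the branched-chain amino acids, the aromatic amino acids, serine, the glutamate, glutamine and asparagine family, and proline. In yeast starved for an amino acid, uncharged tRNA activates the kinase Gcn2, which phosphorylates the initiation factor eIF2. The translation of *GCN4* mRNA then rises through its upstream open reading frames, and Gcn4 protein activates synthesis genes of many pathways at once, which is known as general amino acid control. Gcn4 activity is therefore set largely by translation, and its mRNA level, which is what an array measures, need not follow it.

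Each of 18 cultures of the strain DBY747 was read on an Affymetrix YG-S98 array, with 3 biological replicates in each of 6 groups. The strain is *MAT*a and carries mutations in *his3*, *leu2*, *ura3* and *trp1*, so that all groups alike lack working steps of histidine, leucine and tryptophan synthesis, and all cultures grew to mid-log phase in YPD, a rich medium that supplies amino acids. Of these groups, 3 received an enediyne antibiotic, a DNA-cleaving drug, for 15 min: calicheamicin at 1 nM, esperamicin A1 at 3 nM, or the neocarzinostatin chromophore at 4 nM. The control of these groups is methanol vehicle. A further group received 210 Gy of γ-radiation, and its control is a group named mock irradiation in the labels. For γ-radiation the 15 min were made up of a short irradiation and an incubation at ambient temperature after it. The vehicle named for the mock irradiation control is water. All doses were set to kill 20 to 25% of cells, and the doses of the drugs differ from each other. The effects compared are those at equal killing and not at equal dose.

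Values are intensities normalized with the RMA algorithm on a linear scale, and differences are given on the log2 scale with their standard errors. To be called, a gene had to differ by at least 1.5-fold with a p, adjusted by Benjamini-Hochberg, no higher than 0.1 in a limma fit of all 18 arrays. Precision is limited by the number of arrays. A log2 difference between 2 groups had a median standard error of 0.217 over the members and 0.197 over all genes, and the smallest two-sided p that exact permutation of 3 against 3 arrays allows is 0.1. The mating type that the study gives for the strain was checked first. Intensities of *MFA1* lay between 695 and 1820 and those of *MFA2* between 1160 and 1820, whereas the α-cell genes *STE3*, *MF(ALPHA)1* and *MF(ALPHA)2* lay between 7.67 and 22.1, near the array medians of 15.3 to 16.8. Of the other a-cell genes, *STE2* and *BAR1* lay above those medians on all arrays, *ASG7* lay below them, and *STE6* ran from 5.59 to 17.9, mostly below them. The difference between the 5′ and 3′ probe sets of the actin control, a sign of RNA quality, was -3.59 on the log2 scale in methanol vehicle replicate 1, between -2.34 and -1.53 in the esperamicin A1 arrays and -1.34 or higher in the other 14 arrays. *ARG3* and *SER3* lay below the array median on all 18 arrays and *ARG8* on 17, so their values are the least certain of the members. In RNA from whole cultures, fewer cells that express a gene and less of its RNA per cell cannot be told apart.

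The mRNA of *GCN4* itself (YEL009C) was abundant, and no comparison called it. Its intensity was 1320, 1280 and 1100 in the mock-irradiated arrays, 1120, 1070 and 768 after γ-radiation, and 1470, 1240 and 1360 in methanol vehicle. In the enediyne arrays it was 1260, 1280 and 1310 (calicheamicin), 1400, 1380 and 1330 (esperamicin A1), and 1050, 1190 and 1230 (neocarzinostatin). The lowest of the 18 values is γ-radiation replicate 3, and the γ-radiation and mock arrays overlap. The log2 difference was -0.34 (standard error 0.148, adjusted p = 0.536 from limma) for γ-radiation against mock irradiation, -0.10 (0.121, adjusted p = 0.947) for the enediynes, taken as their mean, against their vehicle, and 0.14 (0.148, adjusted p = 0.623) for methanol vehicle against mock irradiation. None of these was called, and all 3 of the 95% intervals lay inside a 2-fold change in either direction. For γ-radiation against mock irradiation, the median log2 difference over the 51 members was -0.192, smaller in size than that of *GCN4*. The members as a set, *GCN4* included, were highest in the mock-irradiated cells. The median over the 51 members of the log2 intensity, taken relative to each gene's mean over the 18 arrays, was 0.289 to 0.31 in the mock arrays, -0.03 to 0.149 in the γ-radiation arrays and below 0 in all 12 methanol and enediyne arrays, where it lay between -0.238 and -0.004.

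**Figure D1:**
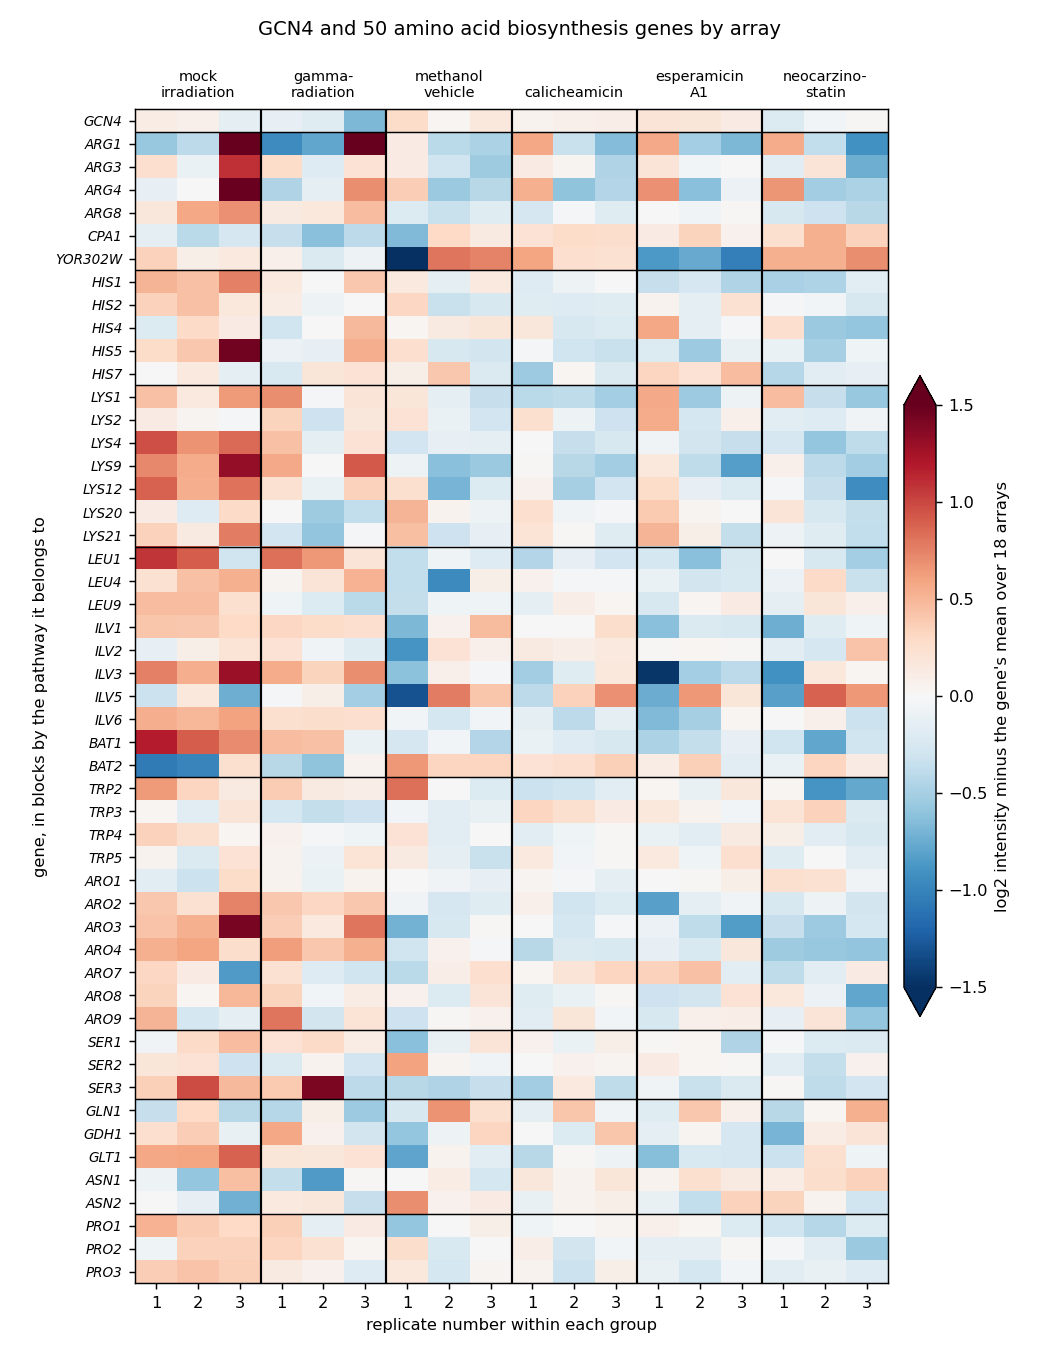
Log2 intensity of *GCN4* and 50 amino acid biosynthesis genes (rows, in blocks by pathway) in each of the 18 arrays (columns, 3 replicates a group), as the difference from each gene's mean over all arrays; colours stop at 1.5 in either direction. The 3 mock irradiation columns are the reddest, with medians of 0.289 to 0.31 over the members, and *ARG1* and *ARG4* stand out in replicate 3 of mock irradiation and γ-radiation.

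The comparison of the 2 controls held most of the changes among these genes. In methanol vehicle against mock irradiation 13 of the 51 members were lower (25.5%, against 5.59% of all genes) and 1 was higher (1.96%, against 3.09% of all genes). The 13 lower genes came from 7 of the pathways: *ARG8*, *HIS5*, *LYS4*, *LYS9*, *LYS12*, *LEU4*, *ILV3*, *ILV6*, *BAT1*, *ARO2*, *ARO3*, *SER3* and *GLT1*. The gene that was higher was *BAT2*. The median log2 difference was -0.408 over the members and -0.05 over all genes, and 38 of the 51 members (74.5%) lay below 0, against 55.7% of all genes. The 3 methanol arrays lay below the 3 mock arrays without overlap in 18 members (35.3%, against 14.3% of all genes) and above them in 2 (3.92%, against 8.75% of all genes), *BAT2* and *ASN2*. This comparison joins the vehicle, mock treatment and handling of 2 separate control sets, which cannot be told apart. Of the 14 calls, 7 remained when each of the 6 arrays was left out in turn: *ARG8*, *LYS4*, *LYS9*, *ILV6*, *BAT1*, *ARO3* and *GLT1*. With the actin difference as a covariate 11 members were called, all of these 7 among them and *BAT2* not. A fit of only these groups called 4, *LYS4*, *LYS9*, *BAT1* and *SER3*, and the local pooled error test 2, *LYS9* and *BAT2*, so that *LYS9* alone of the 14 was called in both. Calls over all genes fell as well, from 175 higher and 316 lower in the main fit. They were 141 and 170 with the actin covariate, 41 and 48 with only these groups, and 45 and 57 with the local pooled error test.

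In the lysine pathway, 3 of 7 members were called lower in methanol vehicle than after mock irradiation, all of them steps after homocitrate synthase. *LYS2* and *LYS1*, also later steps, were not called, and their groups overlap. *LYS2* had 93, 87.6 and 84.7 in the mock arrays and 99.4, 79.6 and 69.9 in the methanol arrays. *LYS1* had 76, 61.7 and 87.2 against 63.3, 50.6 and 44. *LYS4*, which encodes homoaconitase, had intensities of 165, 135 and 153 in the mock arrays and 69.1, 78 and 77.1 in the methanol arrays. The groups do not overlap, and the difference was -1.01 (standard error 0.163, adjusted p = 0.00206 from limma). *LYS9*, for the saccharopine dehydrogenase that precedes the last step, had 222, 197 and 335 in the mock arrays and 127, 86.6 and 90.8 in the methanol arrays. Replicate 3 of mock irradiation was the highest of the 18 arrays for this gene, and the difference of -1.29 (0.283, adjusted p = 0.0124) was the largest fall among the members. *LYS12*, for homoisocitrate dehydrogenase, had 464, 368 and 444 against 299, 156 and 218, a difference of -0.97 (0.25, adjusted p = 0.0291), which was not called without methanol vehicle replicate 2. The homocitrate synthase genes that start the pathway, *LYS20* and *LYS21*, had differences of 0.09 (0.203, adjusted p = 0.827) and -0.41 (0.238, adjusted p = 0.325). They are closely similar paralogs whose RNA may bind each other's probes, and 1 further probe set that matches both of them was left out.

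The branched-chain pathway had 4 lower genes and 1 higher gene among its 10 members, and the paralogs *BAT1* and *BAT2* moved in opposite directions. *BAT1* encodes the mitochondrial branched-chain aminotransferase and *BAT2* the cytosolic one. *BAT1* intensities were 455, 378 and 328 in the mock arrays and 168, 195 and 147 in the methanol arrays. The methanol arrays were all below the mock arrays, at 2.27-fold lower (log2 difference -1.18, standard error 0.189, adjusted p = 0.00205 from limma). *BAT2* intensities were 131, 137 and 321 in the mock arrays and 426, 338 and 340 in the methanol arrays. Mock replicate 3 stood near the methanol arrays and apart from the other mock arrays, and the rise of 1.03 (0.271, adjusted p = 0.0318) was not called without mock replicate 1 or without mock replicate 2.

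Among the other branched-chain enzymes, *ILV6*, which encodes the regulatory subunit of acetolactate synthase, fell by 0.67 on the log2 scale (standard error 0.167, adjusted p = 0.0257). Its intensities were 928, 901 and 966 in the mock arrays and 618, 530 and 619 in the methanol arrays, close to each other within each group. *ILV3*, for dihydroxyacid dehydratase, fell by 1.06 (0.311, adjusted p = 0.0491), from 375, 324 and 544 to 145, 233 and 217, and was not called without methanol replicate 1 or without mock replicate 3. *LEU4* and *LEU9* encode paralogous α-isopropylmalate synthases, the first step of leucine synthesis. *LEU4* fell by 0.82 (0.217, adjusted p = 0.0344), from 314, 361 and 388 to 208, 138 and 283, and was not called without methanol replicate 2 or mock replicate 2. *LEU9* had 76.5, 76.4 and 65.4 against 43.5, 53 and 53.1, without overlap, but its difference of -0.55 (0.152, adjusted p = 0.0395) was under 1.5-fold and so was not called. *LEU1*, for isopropylmalate isomerase, had 210, 187 and 80.7 in the mock arrays and 77.1 to 95.6 in the methanol arrays. Mock replicate 3 again resembled the methanol arrays, and the difference of -0.77 was not called (0.274, adjusted p = 0.103).

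**Figure D2:**
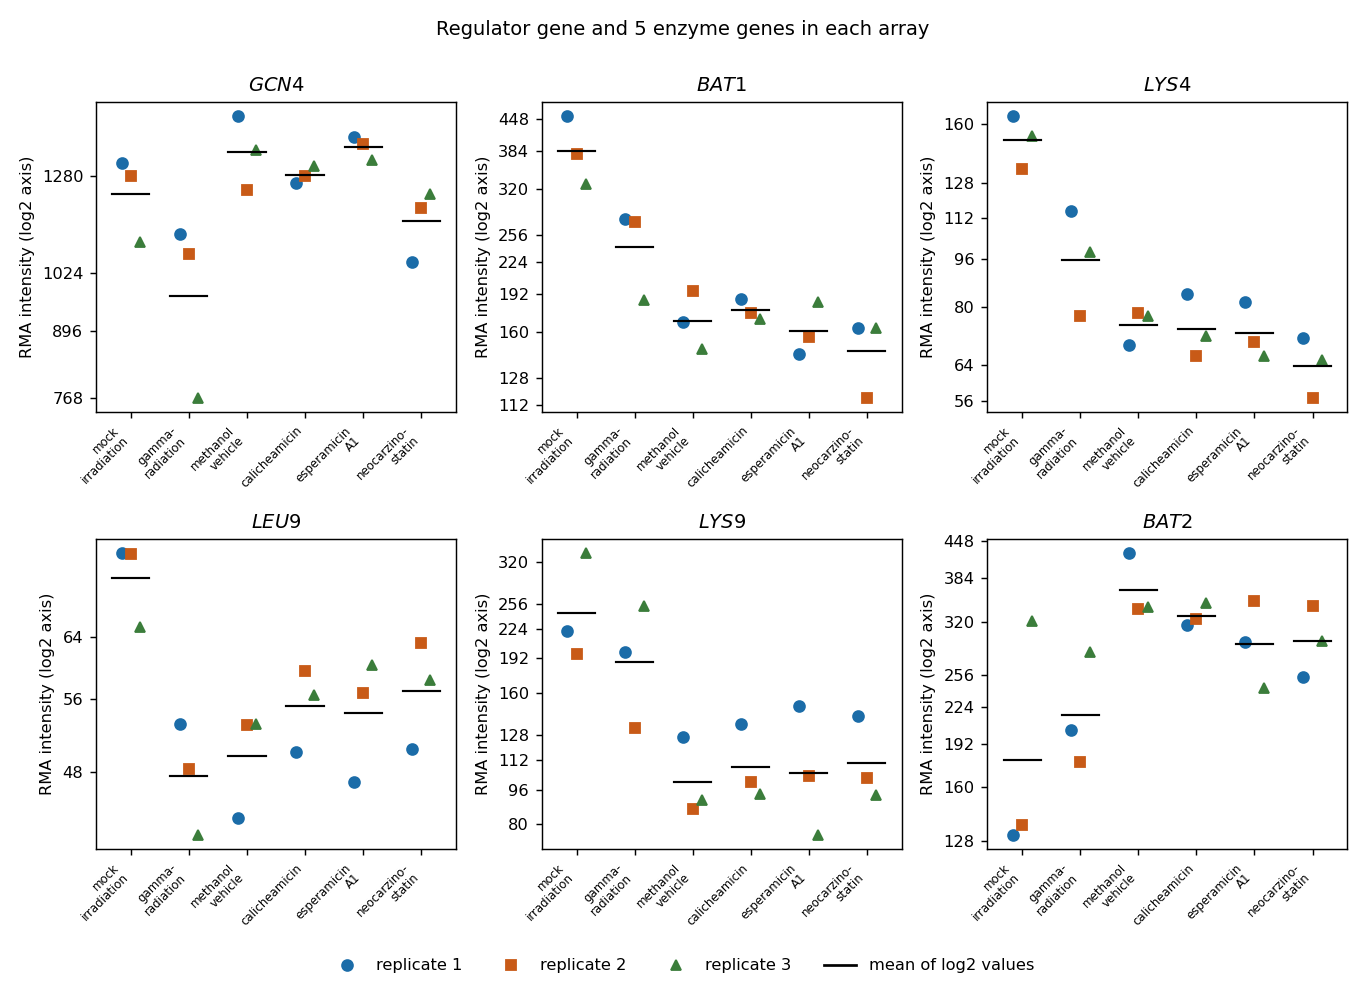
Intensity (log2 axis) of *GCN4* and 5 enzyme genes in each array, by group, with 1 symbol for each replicate number and a bar at the mean of the log2 values. *LYS4*, *LYS9* and *BAT1* are higher in all 3 mock arrays than in the methanol arrays, *BAT2* is lower in all of them, and *LEU9* is lower in the 3 γ-radiation arrays than in the mock arrays.

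Of the 11 aromatic pathway genes, 2 fell. *ARO3* and *ARO4* encode paralogous enzymes of the first step, DAHP synthase, inhibited by phenylalanine and by tyrosine respectively. *ARO3* intensities were 436, 471 and 871 in the mock arrays and 200, 275 and 328 in the methanol arrays, a fall of 1.10 (standard error 0.259, adjusted p = 0.0179 from limma). The mock value of replicate 3 is the highest on any array, and the groups do not overlap. *ARO4* had 862, 900 and 715 against 486, 623 and 589, also without overlap, and a difference of -0.55 (0.147, adjusted p = 0.0358) that was under 1.5-fold. *ARO2*, for chorismate synthase, the last step before the branches, fell by 0.62 (0.187, adjusted p = 0.0553), from 849, 752 and 1070 to 618, 540 and 567, and was not called without methanol replicate 2 or mock replicate 3. The 4 tryptophan branch genes *TRP2* to *TRP5* had differences between -0.18 and -0.12, none called. The aromatic aminotransferase genes *ARO8* and *ARO9*, which act at the end of phenylalanine and tyrosine synthesis and in breakdown, had differences of -0.27 (0.217, adjusted p = 0.492) and -0.11 (0.258, adjusted p = 0.847).

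In the remaining pathways the controls differed in 1 gene each or in none. *GLT1*, which encodes NADH-dependent glutamate synthase, had 205, 207 and 251 in the mock arrays and 78.8, 142 and 122 in the methanol arrays, without overlap, a fall of 0.99 (standard error 0.206, adjusted p = 0.00986 from limma). *ARG8*, for acetylornithine aminotransferase, had 11.5, 15.2 and 16.4 against 8.83, 8.04 and 8.95. Its fall of 0.72 (0.148, adjusted p = 0.00931) lies near the dimmest signals of the array. *HIS5*, for histidinol-phosphate aminotransferase, had 43.6, 47.4 and 97.8 against 42.6, 30.4 and 29.7. Mock replicate 3 stood apart, and the fall of 0.80 (0.267, adjusted p = 0.0822) was not called without it or without methanol replicate 2 or 3. *SER3*, for 3-phosphoglycerate dehydrogenase, the first step of serine synthesis, had 7.17, 11.1 and 7.86 against 4.2, 4.1 and 4.43, a fall of 1.01 (0.311, adjusted p = 0.0597) at dim signals. That call was lost without methanol replicate 1, methanol replicate 2 or mock replicate 2. *HIS1*, for the first enzyme of histidine synthesis, had 386, 369 and 457 against 300, 244 and 301, without overlap, and a difference of -0.52 (0.152, adjusted p = 0.0474) that was under 1.5-fold. The asparagine synthetase paralogs *ASN1* and *ASN2* had differences of 0.02 (0.227, adjusted p = 0.974) and 0.58 (0.239, adjusted p = 0.156). None of the 3 proline genes was called, and *PRO1*, for γ-glutamyl kinase, the first step, came nearest with -0.56 (0.174, adjusted p = 0.0616), which is under 1.5-fold.

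**Figure D3:**
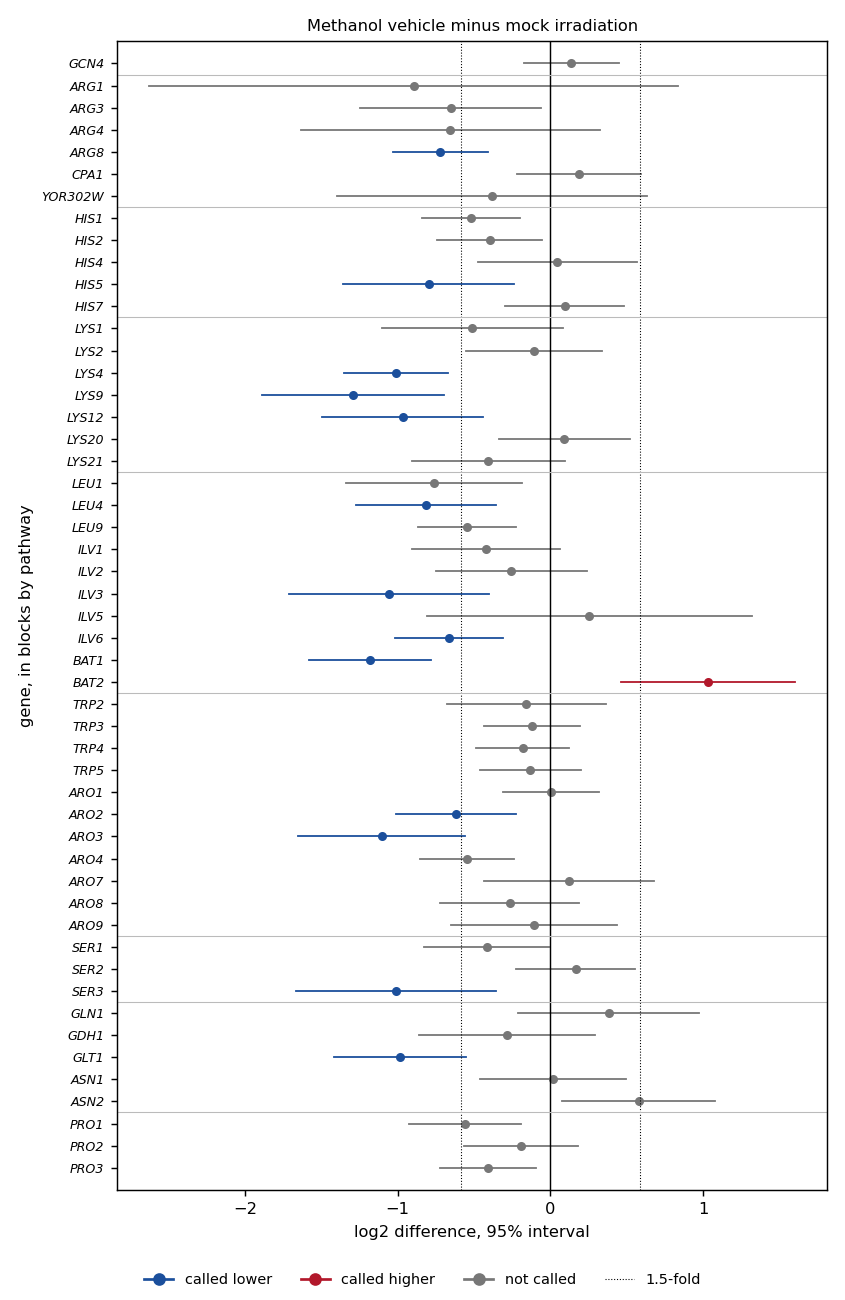
Log2 difference of methanol vehicle minus mock irradiation for the 51 genes (points) with 95% intervals from limma; dotted lines mark 1.5-fold and colours mark the calls. The plot shows 13 genes called lower and *BAT2* alone is called higher, and *GCN4* lies at 0.14.

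γ-radiation was set against mock irradiation to ask which transcripts irradiation changes. It shares its mock arrays with the comparison of the controls, so the 2 sets of differences are not independent. Of the 51 members, 2 were lower (3.92%, against 0.442% of all genes) and 0 were higher (against 0.46% of all genes). The median log2 difference was -0.192 over the members and -0.04 over all genes, and 41 of the 51 (80.4%) lay below 0, against 56.8% of all genes. The γ-radiation arrays lay below the mock arrays without overlap in 12 members (23.5%, against 8.57% of all genes) and above them in 0 (against 6.17%). These 12 were *YOR302W*, *HIS1*, *HIS2*, *LYS4*, *LYS12*, *LYS21*, *LEU9*, *ILV6*, *BAT1*, *TRP3*, *GLT1* and *PRO3*, from 7 pathways. Neither call remained through the leaving out of each array: *LYS4* was called only without γ-radiation replicate 1, and *LEU9* only without mock replicate 3.

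*LYS4* had intensities of 115, 77.2 and 98.6 after γ-radiation, between the mock arrays (135 to 165) and the methanol arrays (69.1 to 78) except in replicate 2, which lay at the level of the methanol arrays. It was 1.57-fold lower than after mock irradiation (log2 difference -0.65, standard error 0.163, adjusted p = 0.094 from limma). *LEU9* had 53.1, 48.3 and 41.9 after γ-radiation against 76.5, 76.4 and 65.4, a fall of 0.61 (0.152, adjusted p = 0.094). Its irradiated arrays lay within or just below the range of the methanol and enediyne arrays, which ran from 43.5 to 63.1.

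Arrays of γ-radiation and mock irradiation with the same replicate number deviated together, so the comparison was also made within replicate pairs. With a block for replicate number inside each control family, 5 members were called lower (9.8%, against 1.11% of all genes) and 0 higher (against 1.17% of all genes). These were *LEU9* (adjusted p = 0.0156 from limma), *LYS4* (0.0245), *LYS21* (0.0245), *BAT1* (0.0584) and *HIS5* (0.063). Homocitrate synthase *LYS21* differed by -0.63, -0.729 and -0.802 in the 3 pairs, with a mean of -0.72 that without the block had a standard error of 0.238 and an adjusted p of 0.335. *BAT1* differed by -0.722, -0.472 and -0.812 in the pairs, with intensities of 276, 272 and 187 after γ-radiation, below all 3 mock arrays. *HIS5* differed by -0.373, -0.53 and -0.906, although its groups overlap, since mock replicate 1 (43.6) is below γ-radiation replicate 3 (52.2). In all, 29 members (56.9%, against 26.8% of all genes) were lower in 3 of 3 pairs and 1, *ASN2*, was higher in 3 of 3 (1.96%, against 17.2% of all genes). *GCN4* was among the 29, at -0.235, -0.257 and -0.524 in the pairs. The counts by pair were made after the values had been seen.

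By pathway, the median difference after γ-radiation was -0.374 in lysine, -0.3 in histidine, -0.292 in arginine, -0.289 in proline, -0.14 in the glutamate family, -0.135 in serine, -0.123 in the branched-chain genes and -0.09 in the aromatic genes. *HIS1* differed by -0.39 (standard error 0.152, adjusted p = 0.454 from limma), *PRO3*, for the last step of proline synthesis, by -0.38 (0.15, adjusted p = 0.454), and *GLT1* by -0.50 (0.206, adjusted p = 0.504). These 3 had no overlap between groups and were not called. The largest positive values were those of *BAT2* at 0.28 (0.271, adjusted p = 0.843) and *ASN2* at 0.28 (0.239, adjusted p = 0.813). *ARO9* differed by 0.21 (0.258, adjusted p = 0.88) and *ARO3* by -0.35 (0.259, adjusted p = 0.762), and neither was called. *SER2*, at -0.18 (0.185, adjusted p = 0.852), had the largest difference of the serine genes.

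**Figure D4:**
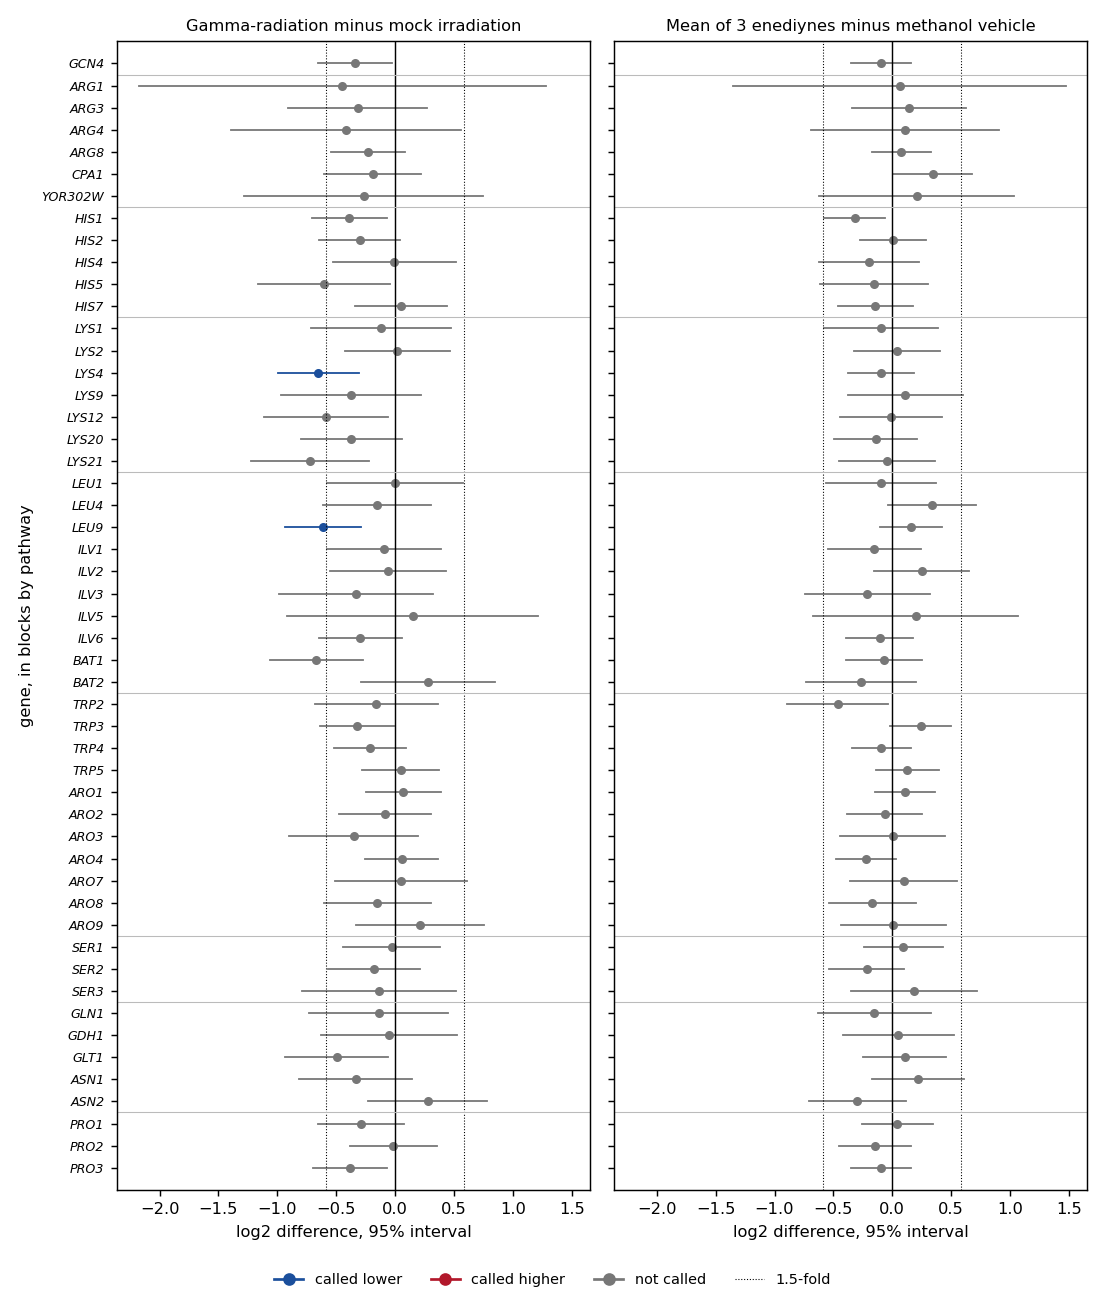
Log2 differences with 95% intervals from limma for the 51 genes, left for γ-radiation minus mock irradiation and right for the mean of the 3 enediynes minus methanol vehicle; dotted lines mark 1.5-fold. On the left 41 of the 51 points lie below 0 and *LYS4* and *LEU9* are called lower, and on the right 26 lie below 0 and none is called.

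The enediynes were each set against methanol vehicle, with the question of whether drugs that attack DNA more selectively evoke the same transcripts. No member was called with calicheamicin, esperamicin A1, neocarzinostatin or the mean of the 3, where 0% of all genes were called by limma. At an unadjusted p under 0.05 there was 1 member with calicheamicin (*TRP3*, 1.96% against 3.89% of all genes) and 1 with esperamicin A1 (*HIS1*, 1.96% against 3.66%). There were 4 with neocarzinostatin (*CPA1*, *HIS1*, *TRP2* and *ARO4*, 7.84% against 8.2%) and 3 in the mean (*CPA1*, *HIS1* and *TRP2*, 5.88% against 5.73%). These shares are near or below those of all genes. The local pooled error test, the study's test as rewritten here and without its Absent/Present filter, called 0 members with calicheamicin or neocarzinostatin. With esperamicin A1 it called 1, *YOR302W*, and it was not run on the mean. Over all genes it called 1 higher and 2 lower with calicheamicin, 0 and 5 with esperamicin A1, and 2 and 1 with neocarzinostatin. These are fewer than the study reported for each drug.

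Over the members the median was 0.02 (calicheamicin), 0.03 (esperamicin A1) and -0.08 (neocarzinostatin), against 0.05, 0.04 and 0.04 over all genes. A change of 2-fold or more lay outside the 95% interval in 47, 46 and 46 of the 51 members and in 48 for the mean. Over all 5656 genes it did so in 5198, 5342 and 5169, and in 5508 for the mean. For *BAT1*, whose enediyne arrays ran from 116 to 188 and overlap the methanol arrays, the differences in the same order were 0.07, -0.07 and -0.21, each with a standard error of 0.189. For *LYS4* it was -0.02, -0.04 and -0.22 with a standard error of 0.163. The largest differences of the mean were those of *TRP2*, for anthranilate synthase, the first step of tryptophan synthesis, at -0.46 (standard error 0.203, adjusted p = 0.817), *CPA1* at 0.34 (0.159, adjusted p = 0.817), *LEU4* at 0.33 (0.177, adjusted p = 0.817) and *HIS1* at -0.32 (0.124, adjusted p = 0.817). In the other pathways, those of *ASN2* at -0.30 (0.195, adjusted p = 0.871), *SER2*, for phosphoserine phosphatase, at -0.22 (0.151, adjusted p = 0.88), *PRO2*, for γ-glutamyl phosphate reductase, at -0.15 (0.144, adjusted p = 0.914) and *LYS20* at -0.14 (0.166, adjusted p = 0.944) were the largest. *TRP2* had 263, 149 and 129 in the methanol arrays, so that methanol replicate 1 alone stood above the 9 enediyne arrays, which ran from 80.7 to 167.

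No pair of enediynes differed in a called member either, over 3 pairs in each of which 0% of all genes were called. The intervals lay inside a 2-fold difference in 45 members where calicheamicin was set against esperamicin A1, in 47 where it was set against neocarzinostatin, and in 45 between esperamicin A1 and neocarzinostatin. Over all 5656 genes the counts, in the same order, were 5265, 5396 and 5191. At an unadjusted p under 0.05 there were 2 members in the first pair (3.92%, against 3.55% of all genes), *YOR302W* and *HIS7*, 0 in the second (against 3.04%) and 4 in the third (7.84%, against 7.32%), *YOR302W*, *HIS7*, *TRP2* and *ARO4*. *HIS7*, for imidazole glycerol phosphate synthase, and *ARO4* are neighbours on chromosome II. *HIS7* had 81.8, 76.3 and 90.3 with esperamicin A1, above the 45.2 to 67 of the 6 calicheamicin and neocarzinostatin arrays, and 69.9, 87 and 56.4 in methanol vehicle, which spans both.

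The effect of γ-radiation and the mean effect of the enediynes were also compared with each other, each against its own control. No member was called (0.336% of all genes were), and 7 members had an unadjusted p under 0.05 (13.7%, against 7.11% of all genes): *CPA1*, *LYS4*, *LYS21*, *LEU9*, *BAT1*, *TRP3* and *GLT1*, all with a more negative value for γ-radiation. The median of the difference was -0.186 over the members and -0.08 over all genes. With the replicate block within each family *LEU9* was called, at -0.77 (standard error 0.151, adjusted p = 0.0373 from limma). That block also pairs the methanol and enediyne arrays, where the pairing was weaker. Residuals of same-numbered arrays correlated there at -0.09 to 0.398, against 0.505 to 0.666 for γ-radiation and mock irradiation. *LEU9* had fallen by 0.61 after γ-radiation and stood at 0.16 (0.124, adjusted p = 0.889) in the mean of the enediynes.

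The arginine genes *ARG1*, for argininosuccinate synthase, and *ARG4*, for argininosuccinate lyase, the last steps of the pathway, varied more with the replicate number than with any treatment. *ARG1* had intensities of 68.8 and 77.9 in mock replicates 1 and 2 and 751 in replicate 3, and 52.8, 59.6 and 504 after γ-radiation. In the methanol vehicle arrays it had 111, 77.2 and 73.1. Under calicheamicin *ARG1* was 153, 80.6 and 65, under esperamicin A1 151, 71.7 and 63.9, and under neocarzinostatin 150, 79.2 and 54.1. Replicate 3 was thus the highest in both groups of the irradiation family, and replicate 1 in all 4 groups of the methanol family. *ARG4* followed the same order, at 161, 174 and 491 in the mock arrays, 128, 159 and 284 after γ-radiation, and 226, 119 and 131 in methanol vehicle. With the enediynes *ARG4* was 253 to 282 in replicate 1 and 114 to 165 in replicates 2 and 3. The standard deviation of the log2 values within groups was 1.2 for *ARG1*, the widest of the members, and 0.666 for *ARG4*, against 0.146 for *TRP4*, the narrowest. *ARG1* was not called in limma for γ-radiation (-0.45, standard error 0.822, adjusted p = 0.936) or between the controls (-0.90, 0.822, adjusted p = 0.55), and within the γ-radiation pairs *ARG1* stood at -0.381, -0.387 and -0.575.

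Other members followed the replicate number too. Over the methanol and enediyne arrays, replicate 1 lay above replicates 2 and 3 without overlap in 5 members (9.8%, against 2% of all genes), *ARG1*, *ARG4*, *LYS9*, *LYS12* and *LYS20*. It lay below them in 5 (9.8%, against 2.51% of all genes), *LEU9*, *ILV3*, *ILV5*, *GLN1* and *GLT1*. *ILV5*, for acetohydroxyacid reductoisomerase, had 93.6, 394 and 308 in methanol vehicle, and replicate 1 was 132 to 176 with the enediynes against 262 to 428 in the others. Over the γ-radiation and mock arrays, replicate 3 lay above replicates 1 and 2 in 10 members (19.6%, against 10.4% of all genes), among them *ARG1*, *ARG4*, *HIS5*, *LYS9*, *ARO3* and *BAT2*, and below them in 6 (11.8%, against 17.7% of all genes), among them *LEU1* and *ILV5*. These counts were made after the values had been seen, and what the replicate number stands for is not given in the sources used here.

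*CPA1*, for the small subunit of the arginine-specific carbamoyl phosphate synthetase, is preceded by *YOR302W*, the upstream open reading frame that encodes the arginine attenuator peptide and represses *CPA1* translation when arginine is plentiful. The neighbours have separate probe sets, and these varied differently. *CPA1* had 143, 276 and 247 in methanol vehicle, 262, 274 and 270 under calicheamicin, 245, 283 and 236 under esperamicin A1, and 266, 327 and 286 under neocarzinostatin. It had 205, 170 and 190 after mock irradiation and 177, 146 and 171 after γ-radiation. *CPA1* was lowest in methanol replicate 1 and otherwise lower in the irradiation family, with differences of 0.19 (standard error 0.194, adjusted p = 0.605 from limma) between the controls and -0.19 (0.194, adjusted p = 0.85) for γ-radiation, neither of them called.

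*YOR302W* had 40.9, 43.8 and 36.3 with esperamicin A1 and 17.2 in methanol replicate 1, and lay between 63.8 and 129 on the other 14 arrays. The esperamicin A1 arrays were all below the calicheamicin (112, 88.1 and 86.9) and neocarzinostatin (108, 107 and 120) arrays, but the fit of all arrays did not call either difference, at 1.24 (adjusted p = 0.994 from limma) for calicheamicin minus esperamicin A1 and -1.47 (adjusted p = 0.578) for esperamicin A1 minus neocarzinostatin. That fit uses 1 estimate of the spread shared by all 6 groups, with methanol vehicle among them. The standard deviation of the log2 values of *YOR302W* was 1.66 in methanol vehicle. It was 0.204 under calicheamicin, 0.139 under esperamicin A1 and 0.0914 under neocarzinostatin. Fits of only the groups compared and the local pooled error test called both differences. Without methanol replicate 1, *YOR302W* was also called lower with esperamicin A1 than in methanol vehicle. The 4 arrays with low *YOR302W* are the 4 with the lowest 5′ minus 3′ actin values. Within esperamicin A1 the order differs, since replicate 3 had the highest actin value (-1.53) and the lowest *YOR302W*. A second such control, *SPT15*, was also low in these 4 arrays but did not separate them fully from the others. It was -4.4 in methanol replicate 1 and -3.67, -3.59 and -4.19 with esperamicin A1. In calicheamicin replicate 2 and neocarzinostatin replicate 1, where *YOR302W* was 88.1 and 108, it was -3.75 and -3.57. The remaining arrays had -3.13 or higher. With that actin difference as a covariate, the 2 differences were 0.39 (adjusted p = 1) and -0.52 (adjusted p = 0.65). Esperamicin A1 and the actin value move together over these arrays, and their parts in the level of *YOR302W* cannot be told apart.

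**Figure D5:**
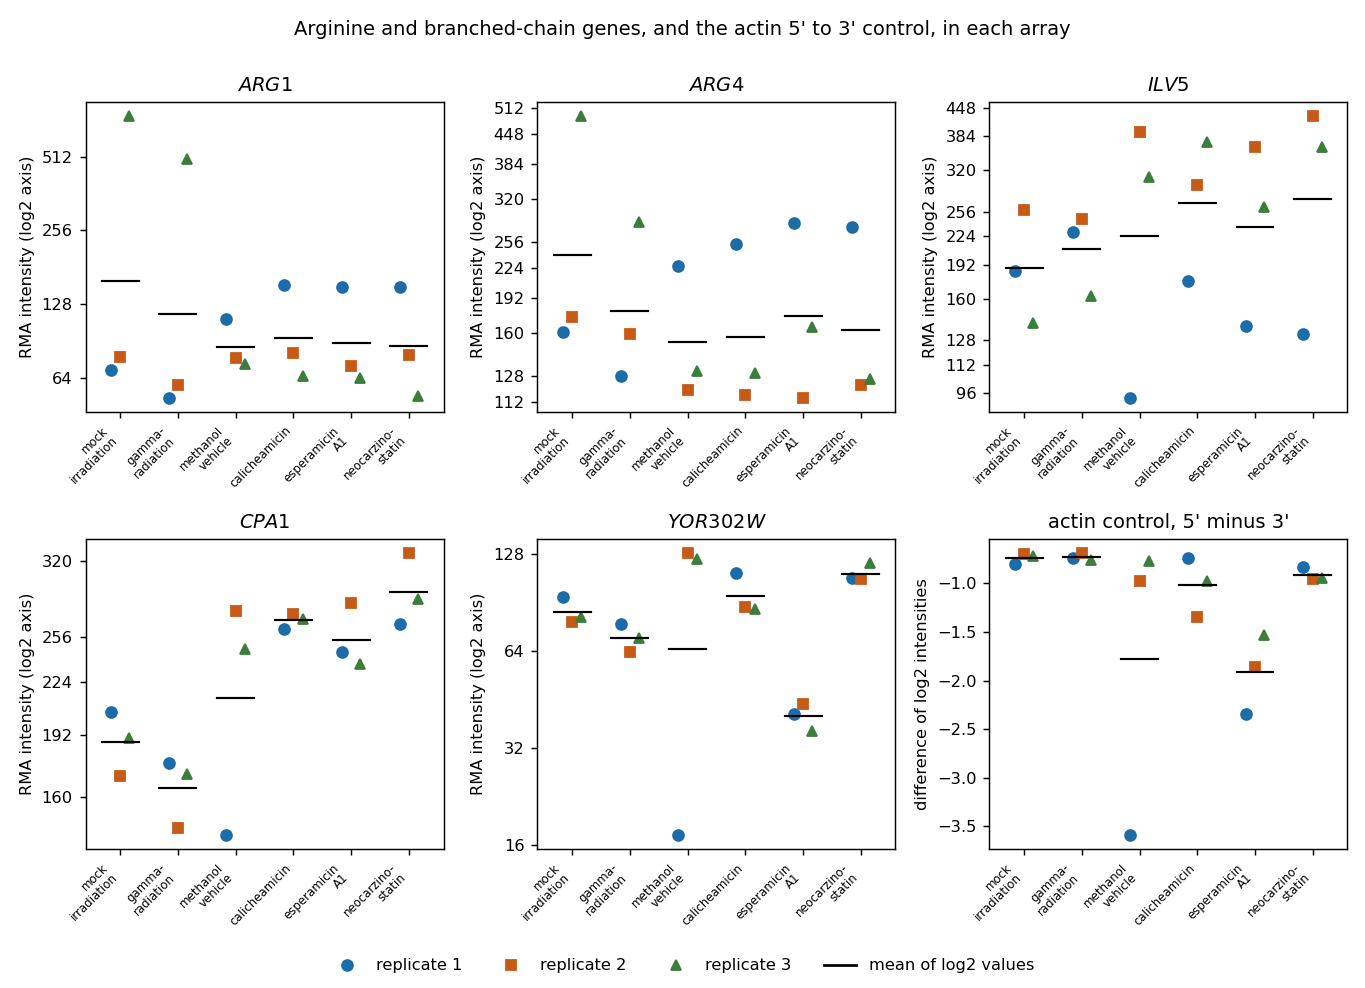
Intensity (log2 axis) of 5 genes and the log2 difference between the 5′ and 3′ actin control probe sets (last panel) in each array, by group, with 1 symbol for each replicate number and a bar at the mean. *ARG1* and *ARG4* are highest in replicate 3 of mock irradiation and γ-radiation and in replicate 1 of the 4 other groups, and *YOR302W* is low in the same 4 arrays that have the lowest actin values.

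Genes around these pathways were described from 5 further lists, which hold 12 regulators of general control, 17 pathway transcription factors, 16 amino acid permeases, 17 measured further synthesis steps and 14 breakdown genes. None of their genes was called after γ-radiation or with the enediynes. Between the controls, where 5.59% of all genes were called lower and 3.09% higher, 2 of the 12 regulators of general control were lower in methanol vehicle than after mock irradiation, *GCN3* and *GCD7*, which encode the α and β subunits of the guanine nucleotide exchange factor eIF2B. *GCN3* fell by 0.85 (standard error 0.207, adjusted p = 0.0218 from limma), from 68.5, 54.5 and 42.8 to 22.9, 32.3 and 36.6. *GCD7* fell by 1.15 (0.33, adjusted p = 0.0452), although methanol replicate 2 (54.2) overlaps the mock arrays (48.9 to 80.4). No transcription factor of the 17 was called. Of the 16 permeases 3 were higher and 1 was lower, and the latter share is near that of all genes. The branched-chain permease genes *BAP3* and *BAP2* moved in opposite directions, *BAP3* by 1.32 (0.313, adjusted p = 0.0191) and *BAP2* by -0.67 (0.224, adjusted p = 0.0817). *BAP3* intensities were 89.4, 69.7 and 31.8 in the mock arrays and 138, 154 and 145 in the methanol arrays, which do not overlap.

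The other permeases that rose were *TAT1*, for tyrosine and tryptophan uptake, by 0.74 (standard error 0.243, adjusted p = 0.0792 from limma) and *HIP1*, for histidine uptake, by 0.81 (0.285, adjusted p = 0.0971). Of the 14 breakdown genes, 2 were higher and 1 was lower: *CAR2*, for ornithine aminotransferase, rose by 1.09 (0.346, adjusted p = 0.0679) and *CHA1*, for serine and threonine deaminase, by 0.73 (0.215, adjusted p = 0.0506). *GCV3*, for a subunit of glycine decarboxylase, fell by 0.68 (0.235, adjusted p = 0.0926), as did *SHM1*, for mitochondrial serine hydroxymethyltransferase, by 0.62 (0.169, adjusted p = 0.0362), the only one called of the 17 further synthesis steps. In both lists the share called lower is near the 5.59% of all genes.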

How the data were processed

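Transcript levels in 18 yeast cultures were measured on YG-S98 arrays, 1 array per culture. The authors made the deposited intensities with RMA (background correction, quantile normalization and probe set summary), on a linear scale, and these were log2-transformed here without further scaling. For each of 5656 genes the probe set of highest mean was used, among those that match 1 gene symbol in the platform annotation, and 328 probe sets that match several genes were left out. The paper's filter on Absent/Present calls was not used here. No sequence was used, so a planned count of the Gcn4 motif in promoters was not made.

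Groups were compared with lmFit and eBayes of limma (version 3.58.1, under R version 4.3.3), with 6 groups and 12 residual degrees of freedom, adjusted over all genes by Benjamini-Hochberg, at a fold of 1.5 and an adjusted p of 0.1. The code of the fit was also run on simulated arrays with independent noise, which lack the pairing of replicates given below. P-values reflect the spread between the arrays of a group, which the labels call biological replicates. The study's local pooled error test was rewritten from its description, and for each treatment it called fewer genes than the study reported. The model has no replicate block. Residuals of same-numbered arrays correlated at 0.647, 0.505 and 0.666 for γ-radiation and mock irradiation, at 0.168, 0.13 and 0.398 for calicheamicin, 0.371, 0.184 and 0.119 for neocarzinostatin and 0.185, 0.348 and -0.09 for esperamicin A1 with methanol vehicle, and at -0.16, -0.10 and -0.15 between the controls. The pairing thus comes from the values and holds for the first 3.

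The members and lists were chosen with earlier results of these data known. The text names *GCN4*, *CPA1*, *YOR302W*, *BAT1*, *LYS4*, every called member, the member with the largest difference in each pathway and comparison, and 6 paralog pairs. Members with no overlap between groups, by replicate number or with an unadjusted p under 0.05, and *LEU1*, *PRO3*, *HIS7*, *ILV5*, *LYS1* and *LYS2*, were added after their values were seen, as were the counts by replicate pair and number and the following of *YOR302W* between enediynes. Alternatives were cyclic loess, median centring, leaving out the dimmest 25% of genes, a trend of variance with intensity, a replicate block over all arrays or within each control family, fits of the compared groups only, an adjusted p of 0.05, no fold threshold, the mean of a gene's probe sets, the actin 5′ minus 3′ difference as a covariate, the local pooled error test and leaving out each array in turn.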

Additional observations from a re-analysis of the deposited data

Results flagged for a closer look

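*LEU9*, for an α-isopropylmalate synthase, differed between the effect of γ-radiation and the mean effect of the enediynes when the replicate number was a block within each control family, by -0.77 on the log2 scale (standard error 0.151, adjusted p = 0.0373 from limma). It is listed because a test of the difference itself passed in that fit. Without the block it was not called. The pairing that the block assumes was weaker between methanol and enediyne arrays than between γ-radiation and mock arrays. The 3 γ-radiation arrays were all below the mock arrays, and the enediyne arrays overlap the methanol arrays.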

How the results depend on the processing

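The 2 calls for γ-radiation were 1 with cyclic loess (*LYS4*) and 1 with median centring (*LEU9*). No member was called without the dimmest genes, with an intensity trend, with only the groups compared, at an adjusted p of 0.05 or with the local pooled error test. Over all genes, 26 were called higher and 25 lower for γ-radiation in the main fit. In those 5 settings, in the same order, 21 and 19, 25 and 21, 10 and 7, 20 and 16, and 13 and 7 were called. Leaving out 1 array gave 0 to 1 member. The member calls were 5 with the replicate block within each family and 2 with the replicate block over all arrays. The block within each family also gave 1 call (*LEU9*) for the difference from the enediynes. The 14 calls between the controls were 4 with only these groups, 2 with the local pooled error test, 15 with the replicate block over all arrays and 11 to 17 without 1 array (13 without methanol replicate 1). Calls over all genes also fell with only these groups and with the local pooled error test. The replicate block changed no other count of called members. Calicheamicin against esperamicin A1 and esperamicin A1 against neocarzinostatin gave 1 call each, *YOR302W*, with only the groups compared and with the local pooled error test. Esperamicin A1 against methanol gave 1, *YOR302W*, with the local pooled error test, and 0 to 1 without 1 array. *YOR302W* between the controls turned from -0.38 to 0.60 with the local pooled error test and 0.61 with the actin covariate, and ran from -0.88 to 0.58 without 1 array. Without 1 array, *ARG1* ran from -1.5 to 0.67 for γ-radiation and from -1.5 to 0.22 between the controls, *ARO9* from -0.067 to 0.47 for γ-radiation, and *LYS20* from -0.26 to 0.032 in the mean of the enediynes. None of these 4 was called. Loess and centring moved the median of all genes by at most 0.0594. The cause of these changes was not tested.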
